A study of Mus musculus with 12 samples.

Results

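The mitochondrially encoded genes are the 37 genes whose symbol begins with mt-, of 52636 genes listed for each of 12 mouse liver RNA-seq libraries. They comprise 13 mRNA genes, 2 rRNA genes and 22 tRNA genes. The livers came from C57BL/6 mice aged 12 weeks and fall into 4 groups of 3 libraries. The group ko_HFD holds p53 knockout (ko) livers on HFD (high-fat diet), and wt_HFD holds p53 wild-type (wt) livers on HFD. The group ko_normal holds ko livers and wt_normal holds wt livers, both on the normal diet. The series title links p53 to the cholesterol enzyme gene Sqle, and its design sets ko against wt livers on each diet. The sources used here do not give the p53 allele, the tissues in which it is deleted, the C57BL/6 substrain, the breeding of the 2 genotypes, the sex or the length of the diet. They also leave unstated whether each library is its own animal, so the p-values speak of library-to-library spread, part of which may be technical.

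Mitochondrial DNA is a small circular genome inherited through the mother. Both of its strands are transcribed into long precursors, from which tRNAs are cut out like punctuation marks to free the mRNAs and rRNAs between them. The mRNAs encode core subunits of complexes I, III, IV and V of the respiratory chain, the rRNAs form the mitochondrial ribosome, and the tRNAs serve translation inside the organelle. Stretches of mitochondrial DNA have also been copied into nuclear chromosomes, where they are annotated as pseudogenes, and short reads from an intact stretch can be assigned to either place. Hepatocytes are rich in mitochondria, and p53 is known to act on mitochondrial metabolism through nuclear target genes.

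In ko against wt the main edgeR fit called 3 neighbouring members, while other settings given below called fewer or more. The 3 are the tRNA genes mt-Tg and mt-Tr and the complex I gene mt-Nd3 between them. Their positions on the mitochondrial chromosome M, build GRCm38, plus strand, are 9391 to 9458 for mt-Tg, 9459 to 9806 for mt-Nd3 and 9808 to 9875 for mt-Tr. No base separates mt-Tg from mt-Nd3, and 1 base separates mt-Nd3 from mt-Tr. Upstream lies mt-Co3 (8607 to 9390) and downstream mt-Nd4l (9877 to 10173), with no base between mt-Co3 and mt-Tg and 1 base between mt-Tr and mt-Nd4l. The sequences of the 2 tRNA genes, from GENCODE M21, are shown since their counts separated the genotypes. Capitals mark the anticodon in each, at bases 31 to 33 from the 5′ end, and in mt-Tr also a run of 8 adenines, bases 14 to 21, at M 9821 to 9828, the longest run of a single base in any of the 22 tRNA genes.
mt-Tg: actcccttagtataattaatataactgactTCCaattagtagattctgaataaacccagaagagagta
mt-Tr: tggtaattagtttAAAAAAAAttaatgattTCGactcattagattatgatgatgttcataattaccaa

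The gene mt-Nd3 has a near-identical annotated pseudogene, Gm28438, at chr1:24612775-24613119 on the minus strand. Over 345 aligned bases the 2 differ by the single substitution T3C, counted from 1 at the first base of mt-Nd3 with the mitochondrial base first, which is M 9461, the third base of the start codon. The longest identical stretch is 342 bases, and the identity over the aligned bases is 99.7%. The first 60 bases of each, 5′ to 3′ on the coding strand, are shown with the differing base in capitals.
mt-Nd3: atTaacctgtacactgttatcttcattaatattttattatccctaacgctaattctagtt
Gm28438: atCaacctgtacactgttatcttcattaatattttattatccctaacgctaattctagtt

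Gm28438 is one of 7 annotated pseudogenes that lie in mitochondrial order within 4663 bases of chromosome 1, at chr1:24611535-24616197. They copy mt-Co2, mt-Atp6, mt-Co3 and mt-Nd4l nearly whole with 100% identity, mt-Nd3 with the difference above, 876 bases of mt-Nd4 with 100% identity and 483 bases of mt-Co1 with 99.8% identity. Among the annotated copies kept, 9 of the 13 mRNA genes had one of at least 95% identity over at least 50 bases. None of the 22 tRNA genes or 2 rRNA genes had one among those kept. The copies kept lie on chromosomes 1, 2 and 13. Matches on 1 chromosome were left out after the search, so a copy there is not excluded. The interval of chromosome 1 that corresponds to mt-Tg, between the copies of mt-Co3 and mt-Nd3, holds 69 bases, as does its counterpart on M. The interval that corresponds to mt-Tr, between the copies of mt-Nd3 and mt-Nd4l, holds 74 bases on chromosome 1 and 73 bases on M. No gene is annotated in either chromosome 1 interval, and their bases were not read here.

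Library totals ran from 15465187 to 20492567 counts. Trp53, the deleted gene, had 5 to 28 counts in the 6 ko libraries and 142 to 432 counts in the 6 wt libraries. All 8 hepatocyte markers were present, with a summed level of 70310 to 81075 CPM (here without TMM scaling) in ko and 42055 to 58457 CPM in wt libraries, which do not overlap. In the whole-liver RNA, fewer cells of a type and less RNA per cell cannot be told apart. Library wt_normal replicate 2 carried skeletal muscle RNA, with 10906 CPM in 10 muscle markers, against 3.17 to 14.1 CPM in the other 11 libraries, and its mitochondrial share lay within the range of the other wt libraries. The same library had 163 CPM in 5 B cell markers, against at most 11.8 CPM elsewhere. Endothelial markers (6 genes) summed to 156 to 225 CPM in ko_normal and 314 to 381 CPM in wt_normal, which do not overlap, and to 134 to 245 CPM in ko_HFD and 191 to 276 CPM in wt_HFD, which overlap. Stellate cell markers (6 genes) summed to 78.7 to 88.7 CPM in ko_normal and 148 to 898 CPM in wt_normal, with the highest in replicate 2, and to 60.2 to 132 CPM in ko_HFD and 67.6 to 191 CPM in wt_HFD. The 5 T and NK cell markers summed to 2.71 to 3.44 CPM in ko_HFD and 1.28 to 2.15 CPM in wt_HFD, and overlapped on the normal diet. The B cell markers summed to 6.99 to 10.6 CPM in ko_HFD and 4.18 to 6.62 CPM in wt_HFD. These marker sums are all without TMM scaling. The part of these markers in the results below was not tested. The counts of members called were also taken without the muscle library. Counts do not tell a mature tRNA from an unprocessed precursor.

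The 37 genes took 4.18%, 10.3% and 7.22% of all counts in ko_HFD replicates 1 to 3 and 4.58%, 6.51% and 4.90% in wt_HFD. In ko_normal they took 14.6%, 4.75% and 6.06%, and in wt_normal 5.63%, 5.32% and 4.68%. The ko and wt ranges overlap on both diets, and the high values come from ko_normal replicate 1 and ko_HFD replicate 2. Without these libraries the share ran from 4.18% to 7.22%. A list of 4 nuclear-retained RNAs, a guide to RNA quality, summed to 888 CPM without TMM scaling in ko_normal replicate 1 and 729 in ko_HFD replicate 2. The other 10 libraries spanned 383 to 842 CPM in that list, and its part in the shares was not tested.

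**Figure D1:**
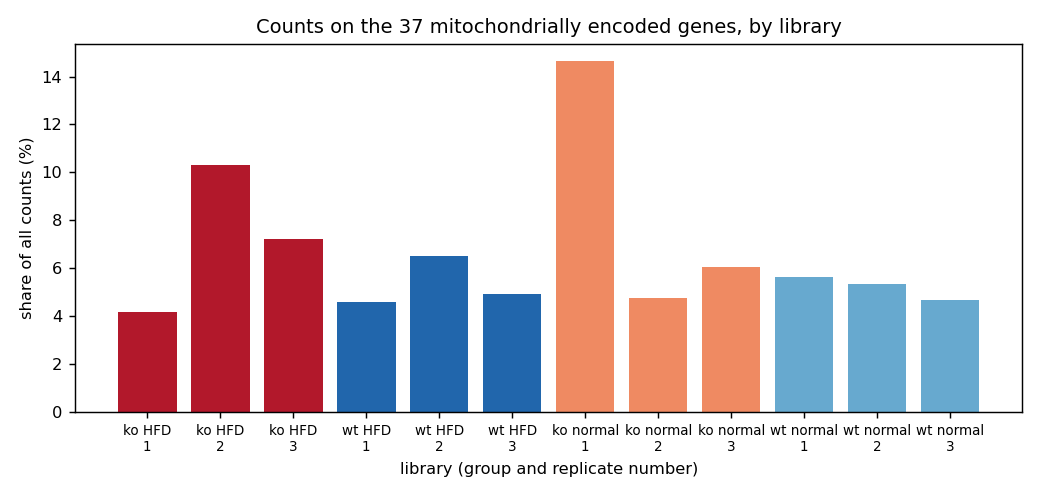
Share of all counts on the 37 mitochondrially encoded genes (vertical axis, %) in each of the 12 libraries (bars, grouped by genotype and diet). The bars of ko_normal replicate 1 at 14.6% and ko_HFD replicate 2 at 10.3% stand above the other 10, which lie between 4.18% and 7.22%.

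Within the mitochondrial counts, 5 mRNAs (mt-Nd1, mt-Nd2, mt-Co1, mt-Nd4 and mt-Cytb) held 88.5% to 93.8% in every library. The rRNAs held 2.11% to 6.77%, and the tRNAs held 0.249% to 0.499%. All of the levels that follow are mean normalised read counts per kilobase of gene length (CPM per kb) over the 12 libraries. The highest was 12914 for mt-Cytb, the complex III subunit cytochrome b, followed by 11251 for mt-Co1, the catalytic subunit of complex IV. The complex I subunits mt-Nd1, mt-Nd2 and mt-Nd4 had 9442, 9052 and 7006. Library ranges of these 5 overlap. Within each library, however, mt-Cytb lay above mt-Nd2 and above mt-Nd4 on this scale. The rest of their order is not resolved by these ranges. The complex I gene mt-Nd6, the only mRNA gene of the minus strand, had 1511, and the rRNAs mt-Rnr1 and mt-Rnr2 had 1123 and 686.

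The mRNAs with the chromosome 1 copies over their whole length were among the lowest on this scale of CPM per kb. The complex IV subunits mt-Co2 and mt-Co3 had 257 and 155, the complex V subunit mt-Atp6 had 193, and mt-Nd3 and mt-Nd4l had 98.2 and 36.5. The short complex V gene mt-Atp8, which overlaps mt-Atp6, had 14.2. Counts on the copies were of the same order as those on the genes. Of the summed counts of mt-Co2 and its copy Gm28661, 54.5% to 69.1% lay on mt-Co2, and for mt-Atp6 and Gm10925 48.6% to 72.6% lay on mt-Atp6. For mt-Co3 and Gm28437, 26.7% to 62.2% lay on mt-Co3. For mt-Co1 and mt-Nd4, copied only in part on chromosome 1, at least 98.6% and 99.7% of the sums with those copies lay on the mitochondrial gene. A further annotated copy of mt-Co1, Gm13340 on chromosome 2, spans 1545 bases at 97.6% identity and was not part of these sums. The sources used here do not state how reads were divided between the genes and their copies, so level differences between copied and uncopied genes are uncertain.

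**Figure D2:**
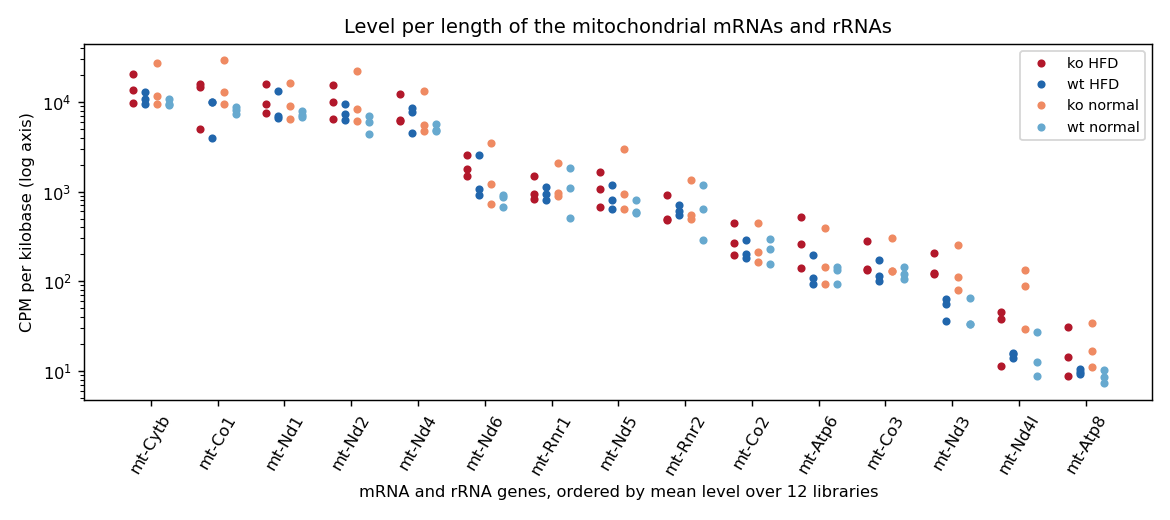
Level per gene length (CPM per kilobase, log axis) of the 13 mRNAs and 2 rRNAs, ordered by mean level, with 1 point per library and colours for the 4 groups. The 5 most abundant mRNAs average 7006 to 12914 and the mRNAs copied whole on chromosome 1 lie at 257 and below.

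Before the statistics on ko against wt, the counts of the 3 neighbours show the contrast directly. The gene mt-Tg, which encodes the glycine tRNA, had 57, 78 and 32 counts in ko_HFD and 0, 0 and 0 counts in wt_HFD. It had 64, 20 and 44 counts in ko_normal and 0, 0 and 0 counts in wt_normal. Every ko library held at least 20 reads of mt-Tg, and no wt library held any. With 3 counts over all wt libraries of a comparison taken as the floor, and counts summed over TMM-scaled library sizes, mt-Tg was at least 54.9-fold higher in ko on HFD, at least 43.6-fold on the normal diet and at least 98.8-fold over both diets. Floors and intervals cover counting error only.

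The gene mt-Tr, which encodes the arginine tRNA, had 29, 36 and 24 counts in ko_HFD and 1, 0 and 0 counts in wt_HFD. It had 53, 21 and 13 counts in ko_normal and 1, 2 and 0 counts in wt_normal. The groups do not overlap on either diet, and the wt counts are at the level of single reads. The ratio of ko to wt, from summed counts over summed TMM-scaled library sizes, was 87.8 on HFD (exact 95% interval 15.4 to 3507), 29.6 on the normal diet (9.81 to 146) and 44.2 over both diets (17.0 to 164).

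The gene mt-Nd3 had 732, 1249 and 666 counts in ko_HFD and 369, 303 and 223 counts in wt_HFD. It had 1503, 554 and 713 counts in ko_normal and 370, 244 and 225 counts in wt_normal. Every ko library lay above every wt library. In normalised read counts mt-Nd3 averaged 51.7 ± 22.7 CPM in ko and 16.7 ± 5.38 CPM in wt livers (SD, n = 6 each).

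In edgeR's quasi-likelihood test, adjusted over all 14433 genes tested, mt-Tg rose in ko on HFD (adjusted p = 0.0385) and on the normal diet (adjusted p = 0.0372). The rise of mt-Tr was called on the normal diet (adjusted p = 0.0484) and missed the threshold of 0.05 on HFD (adjusted p = 0.0506). Averaged over both diets, mt-Tg and mt-Tr both had an adjusted p of 0.00233, and mt-Nd3 rose by 1.63 on the log2 scale (SE 0.30, adjusted p = 0.0256). On a single diet mt-Nd3 was not called, with a log2 change of 1.52 (SE 0.42, adjusted p = 0.348) on HFD and 1.75 (SE 0.42, adjusted p = 0.0993) on the normal diet. It was called on both diets by DESeq2 (adjusted p = 0.0438 on HFD and 0.00336 on the normal diet) and by edgeR with no filter on low counts (0.0351 and 0.00203). Of the 29 members tested, 1 was called on HFD, 2 on the normal diet and 3 in the average, all higher in ko. Of all genes tested, 0.0416%, 0.145% and 0.79% were called higher in these comparisons. The 3 members called were chosen with earlier results of these data known. Both mt-Tg and mt-Tr passed the filter on low counts through the ko libraries. The count of members called is therefore a description.

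The calls on a single diet ended when 1 library was left out in several cases. On the normal diet no member was called without ko_normal replicate 1 or 3, wt_normal replicate 2 or 3, or ko_HFD replicate 1 or 2. On HFD none was called without any one of the 6 HFD libraries or without ko_normal replicate 3. In the average over both diets mt-Tg and mt-Tr kept an adjusted p of at most 0.0249 in every alternative. The alternatives refit the same counts, and both genes were chosen with earlier results of these data known. These p-values are therefore a description too. The call of mt-Nd3 ended without any one of ko_HFD replicate 2, wt_HFD replicate 2 or 3, ko_normal replicate 3, or wt_normal replicate 2 or 3. Its adjusted p was then 0.0503 to 0.0758, with log2 changes of 1.48 to 1.72.

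**Figure D3:**
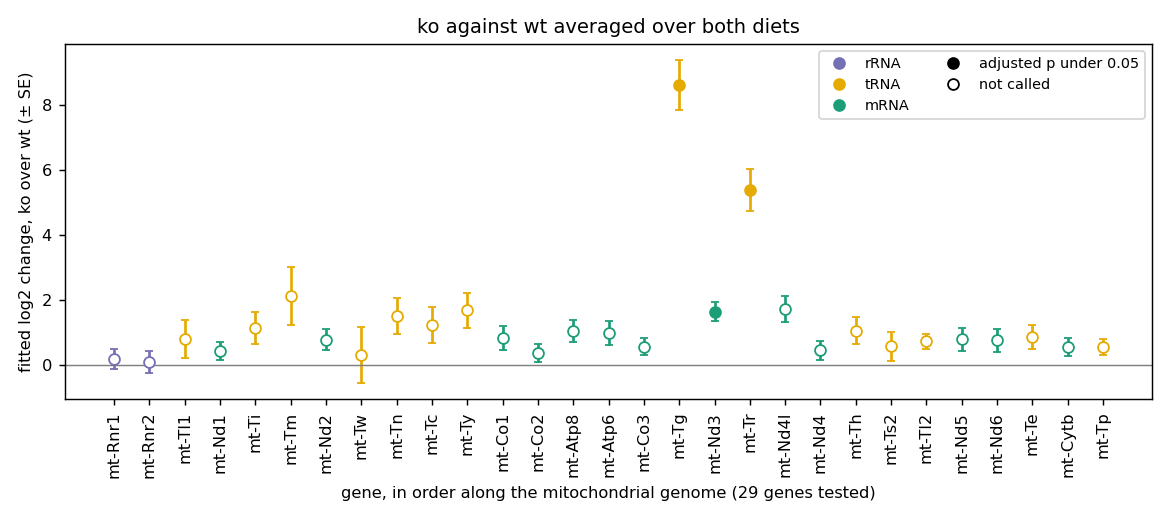
Fitted log2 change of ko over wt averaged over both diets (vertical axis, ± SE) for the 29 mitochondrially encoded genes tested, in order along the mitochondrial genome. Filled points passed an adjusted p of 0.05: mt-Tg, mt-Nd3 and mt-Tr, which are adjacent. The fitted height of mt-Tg depends on the prior count, since wt livers had no read of it.

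Since 2 libraries had high mitochondrial shares, the members were also expressed per 100000 counts on the 13 mitochondrial mRNAs. On that scale mt-Tg stood at 7.64, 4.41 and 2.89 in ko_HFD, 2.63, 2.14 and 3.98 in ko_normal, and 0 in each wt library. The gene mt-Nd3 stood at 98.1, 70.6 and 60.1 in ko_HFD and 49.5, 28.6 and 26.3 in wt_HFD, and at 61.8, 59.4 and 64.5 in ko_normal and 45.8, 26.4 and 26.5 in wt_normal. In ko_normal, the library with the highest mitochondrial share no longer stood apart in mt-Nd3. Of the 37 members, mt-Tg, mt-Nd3 and mt-Tr had all 6 ko libraries above all 6 wt libraries on this scale, and the other 34 overlapped. Over all genes tested the share with that pattern was 0.0624% on this scale and 0.901% in CPM. The share on this scale is no neutral background. Equal mitochondrial mRNA scaling in the fit moved the median log2 change of all genes in the average to -0.44. The members mt-Tg, mt-Nd3 and mt-Tr were also chosen by name with earlier results of these data known. Their separation is therefore a description, and these shares do not test it. With the libraries scaled to equal mitochondrial mRNA in the fit, mt-Nd3 was not called in the average (log2 change 1.02, adjusted p = 0.111).

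**Figure D4:**
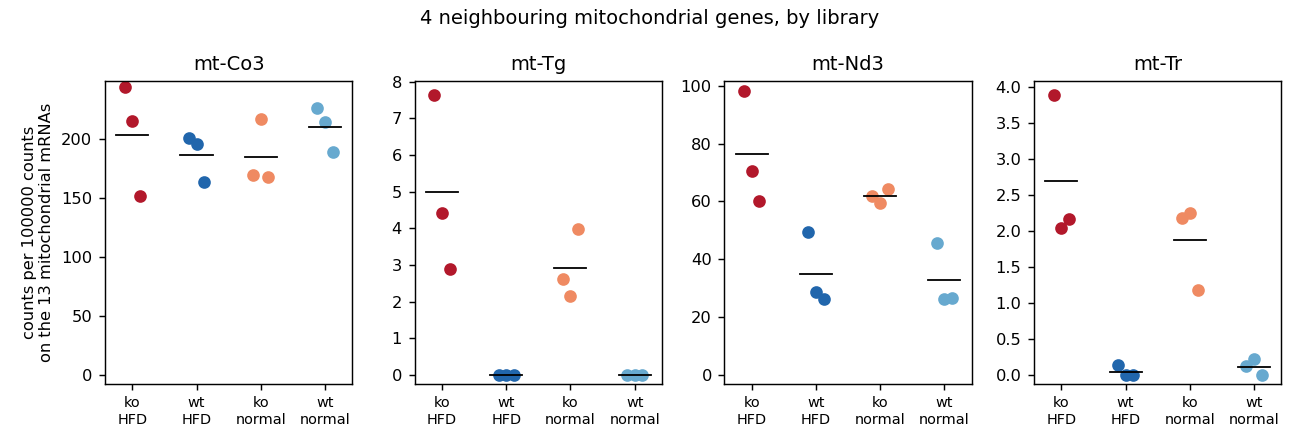
Counts per 100000 counts on the 13 mitochondrial mRNAs (vertical axis, a separate scale in each panel) of the neighbours mt-Co3, mt-Tg, mt-Nd3 and mt-Tr in the 4 groups, with 1 point per library and the group mean as a line. The ko and wt points overlap for mt-Co3 and separate for the other 3 genes.

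The pseudogene Gm28438, examined after the values of mt-Nd3 were seen, differed in the other direction. It had 255, 425 and 214 counts in ko_HFD and 1001, 1107 and 725 counts in wt_HFD. It had 446, 156 and 227 counts in ko_normal and 876, 892 and 749 counts in wt_normal. Every ko library lay below every wt library of its diet and of the other diet. Averaged over both diets Gm28438 fell by 1.63 on the log2 scale in ko (SE 0.27, edgeR adjusted p = 0.0152), the size of the rise of mt-Nd3. On HFD its log2 change was -1.71 (adjusted p = 0.222) and on the normal diet -1.55 (adjusted p = 0.0993).

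Together, mt-Nd3 and Gm28438 had 987, 1674 and 880 counts in ko_HFD and 1370, 1410 and 948 counts in wt_HFD, and 1949, 710 and 940 counts in ko_normal and 1246, 1136 and 974 counts in wt_normal. The summed counts of ko and wt libraries overlap on both diets. Of these sums, mt-Nd3 held 74.2%, 74.6% and 75.7% in ko_HFD and 26.9%, 21.5% and 23.5% in wt_HFD. It held 77.1%, 78.0% and 75.9% in ko_normal and 29.7%, 21.5% and 23.1% in wt_normal. The division between the 2 places thus differed between the genotypes in every library, while it varied by at most 8.22 percentage points within a genotype. These shares were examined with the values known and have no test.

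With the counts of each chromosome 1 copy added to its mitochondrial gene, an alternative chosen after seeing the data, mt-Nd3 was not called in any comparison of ko with wt. Its log2 change was then -0.12 on HFD (adjusted p = 0.952), 0.15 on the normal diet (adjusted p = 0.888) and 0.016 in the average (adjusted p = 0.984). No copy was added to mt-Tg or mt-Tr, so their own counts stayed the same and this alternative does not test them. Reads in the chromosome 1 intervals that correspond to them, if any, were not added. Their calls in the average remained, and mt-Tr was also called on HFD (edgeR adjusted p = 0.0499).

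The pair of mt-Nd4l, a small complex I subunit, and Gm10222 showed a division in the same direction. The share on mt-Nd4l was 60.4%, 66.9% and 68.8% in ko_HFD and 43.6%, 34.3% and 40.4% in wt_HFD. It was 75.7%, 88.1% and 69.1% in ko_normal and 24.8%, 29.9% and 56.0% in wt_normal. The ko and wt shares do not overlap, over sums of 96 to 897 counts per library. The gene itself had 58, 236 and 181 counts in ko_HFD and 68, 73 and 80 counts in wt_HFD, which overlap. It had 679, 520 and 161 counts in ko_normal and 60, 55 and 158 counts in wt_normal, which do not overlap, with 161 against 158 counts in the nearest libraries. Its averaged log2 change of 1.72 (SE 0.41, adjusted p = 0.0619) missed the threshold and was 0.81 (adjusted p = 0.229) with the copies summed. In the average mt-Nd4l was called by DESeq2 (adjusted p = 0.000872) and by edgeR with no filter on low counts (0.00153) or without ko_HFD replicate 1 (0.0345). On the normal diet it was called by DESeq2 (adjusted p = 0.00214) and by edgeR with no filter (0.00203). In the other 5 pairs the ko and wt shares overlap.

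**Figure D5:**
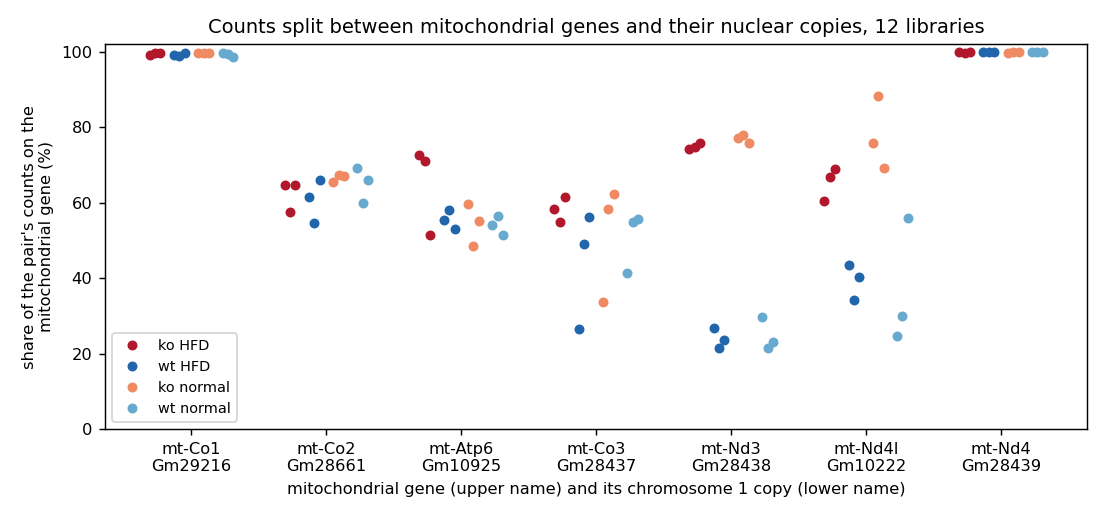
Share of the summed counts of each mitochondrial gene and its chromosome 1 copy that lay on the mitochondrial gene (vertical axis, %), with 1 point per library. For mt-Nd3 the 6 ko points lie at 74.2% to 78.0% and the 6 wt points at 21.5% to 29.7%. The ko and wt points also separate for mt-Nd4l and overlap for the other 5 pairs.

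Position M 9461, where mt-Nd3 and its copy differ, is known as a site at which sublines of C57BL/6 mice differ in their mitochondrial DNA, and a run of adenines in the arginine tRNA gene is known to vary in length between mouse strains. Whether the ko and wt livers carry different mitochondrial bases in this stretch was not tested, since the files hold counts and no read sequences.

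Among the other mRNAs the main edgeR fit called no member in any comparison of ko with wt. The complex I genes had averaged log2 changes of 0.42 to 1.72, and 1 of 7, mt-Nd3, was called. The gene mt-Nd4, the complex I mRNA with the highest CPM, had 11064 ± 5130 CPM in ko and 8244 ± 2327 CPM in wt livers (SD, n = 6 each), with an averaged log2 change of 0.44 (SE 0.29, adjusted p = 0.432). The minus-strand gene mt-Nd6 had 969 ± 508 CPM in ko and 599.5 ± 357 CPM in wt livers, with 0.76 (SE 0.36, adjusted p = 0.279). The ko and wt libraries of mt-Nd4 and mt-Nd6 overlap on both diets.

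For complex III, mt-Cytb had 11025, 23483 and 15684 CPM in ko_HFD and 12274, 14872 and 10910.1 CPM in wt_HFD. It had 31094, 10883 and 13222 CPM in ko_normal and 12272, 10663 and 10899 CPM in wt_normal. The libraries with high mitochondrial shares set the top of both ko groups, and the groups overlap. Its averaged log2 change was 0.55 (SE 0.27, adjusted p = 0.294). For complex IV, mt-Co1 had 22358 ± 12679 CPM in ko and 12409 ± 3495 CPM in wt livers (SD, n = 6 each), with an averaged log2 change of 0.82 (SE 0.36, adjusted p = 0.235). Neither mt-Co2 nor mt-Co3 was called, at 0.37 (SE 0.28) and 0.56 (SE 0.26).

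For complex V, mt-Atp6 had 177, 355 and 96.8 CPM in ko_HFD and 74.7, 132 and 62.7 CPM in wt_HFD. It had 264, 62.7 and 97.7 CPM in ko_normal and 98.6, 90.3 and 63.6 CPM in wt_normal. The groups overlap on both diets, and its averaged log2 change of 0.99 (SE 0.37) had an adjusted p of 0.181. In the average mt-Atp6 was called in 1 of 21 alternatives. The rRNA mt-Rnr2, the large subunit rRNA, had 1124 ± 553 CPM in ko and 1046 ± 459 CPM in wt livers (SD, n = 6 each). Its averaged log2 change was 0.10 (SE 0.34, adjusted p = 0.904), the smallest of the 29 members.

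Across members the fitted changes were mostly positive. All 29 tested members had a positive log2 change on the normal diet and in the average, and 27 did on HFD, against 48.0%, 48.3% and 48.9% of all genes tested. The members' median log2 change was 0.46 on HFD, 1.15 on the normal diet and 0.79 in the average, against -0.01, -0.02 and -0.01 for all genes. These medians were the same with mt-Tg at its lower bound. The members mt-Tg and mt-Tr passed the filter on low counts through the ko libraries, so the counts over tested members are a description. Without ko_HFD replicate 2 the median on HFD was 0.11, with 20 of 29 positive. Without ko_normal replicate 1 the median on the normal diet was 0.43, with 24 positive. Without both of these and wt_normal replicate 2 the medians were 0.10 on HFD, 0.49 on the normal diet and 0.26 in the average. On the normal diet 9 of 29 members had every ko above every wt library, against 11.4% of all genes, and on HFD 3 of 29 did, against 6.7%.

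Of the 22 tRNA genes, 14 passed the filter on low counts and 10 had reads in all 12 libraries. The most abundant was mt-Tp, the minus-strand proline tRNA gene, with 108, 240 and 171 CPM in ko_HFD and 91.6, 167 and 145 CPM in wt_HFD, and 375, 184 and 198 CPM in ko_normal and 194, 137 and 120 CPM in wt_normal. Both pairs of groups overlap, and its averaged log2 change was 0.56 (SE 0.25, adjusted p = 0.244). Apart from mt-Tg and mt-Tr, the tested tRNA genes had averaged log2 changes of 0.30 to 2.13, with none called in the main edgeR fit. Among the 8 tRNA genes not tested, 3 had no read in any library: mt-Tf, mt-Ts1 and mt-Td. The other 5, mt-Tv, mt-Tq, mt-Ta, mt-Tk and mt-Tt, had at most 33 counts in a library. In the annotation 28 of the 37 members, mt-Tg and mt-Tr among them, lie on the plus strand and 9 on the minus strand.

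Diet was compared within each genotype. No member was called for HFD against the normal diet in wt or in ko by edgeR or DESeq2, against 0.693% and 0% of all genes called by edgeR. At an unadjusted p under 0.05, 0 members differed by diet in wt and 2 in ko, against 17.0% and 5.63% of all genes. The difference between the ko effects on the 2 diets was tested directly, and no member was called by edgeR or DESeq2, with 1 at an unadjusted p under 0.05, against 0% of all genes called and 5.02% at that unadjusted p. In ko, mt-Nd3 had 52.1 ± 17.1 CPM on HFD and 51.2 ± 31.6 CPM on the normal diet, and in wt it had 18.1 ± 4.93 CPM on HFD and 15.3 ± 6.48 CPM on the normal diet (SD, n = 3 each).

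Nuclear genes that serve the mitochondrial genome were followed as 4 lists. None of 21 genes for mitochondrial transcription and DNA maintenance was called in ko against wt on HFD, on the normal diet or in the average, and their median log2 changes were 0.20, 0.12 and 0.15. The same held for the 21 measured genes of mitochondrial RNA processing and decay, with medians of 0.07, 0.05 and 0.03. It held for the 29 genes of tRNA modification and aminoacylation, with medians of -0.06, 0.08 and 0.03. Of 8 mitochondrial genes linked to p53, 7 were tested and none was called in ko against wt, with medians of 0.19, 0.04 and 0.18. In that list Gls2, a mitochondrial glutaminase and p53 target, had 108 ± 57.1 CPM on HFD and 333 ± 15.1 CPM on the normal diet in wt livers (SD, n = 3 each). It fell by 1.62 on the log2 scale (SE 0.31, edgeR adjusted p = 0.0381).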

How the data were processed

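RNA was measured by sequencing in 12 liver libraries, in 4 groups of 3 taken from the labels. The authors deposited read counts, whole numbers for each gene and library, which were used unchanged. Per the submitters' processing notes, CASAVA 1.8 and Bowtie 0.12.2 were used and the builds mm8 and mm9 are named without a role. The counter, annotation, strand setting and handling of reads that match several places are not stated there. This bears on every gene with a near-identical copy.

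Symbols, positions, lengths and sequences are those of GENCODE M21 on GRCm38, looked up by gene identifier (52403 of 52636 matched), and are not the authors' coordinates. Copies were searched with BLAST among annotated transcripts, and not every chromosome was kept in the count of copies. The low-count filter filterByExpr of edgeR kept 14433 genes, 29 of the 37 members among them. CPM are TMM-scaled, except the sums of marker lists. Differences were tested two-sided with the quasi-likelihood F-test of edgeR 4.0.16, fitting 4 groups to 12 libraries at once, with 8 residual degrees of freedom, for 6 comparisons: ko against wt on each diet and averaged, HFD against normal in each genotype, and the difference of the ko effects. Calls are at 0.05 after Benjamini-Hochberg adjustment over all genes tested. Where a group had no read of a gene, its sum was taken as 3 counts for a lower bound, and intervals are exact at 95%. Replicate pairs differed beyond sampling noise (chi-square per degree of freedom 39.5 to 199). The fit was tested on simulated data in which 200 genes with higher counts changed. That setting does not cover genes with almost no counts in wt, such as mt-Tg and mt-Tr.

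The members and lists were chosen with earlier results of these data known, mt-Nd3, mt-Tg and mt-Tr by name. Named with values are these 3, every called member, their neighbours, the member with the highest CPM of each role, and mt-Nd6. Alternatives were other fits, filters and scalings, DESeq2 1.42.0, libraries left out and copies summed. No library was left out of the values reported unless named.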

Additional observations from a re-analysis of the deposited data

How the results depend on the processing

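The number of mitochondrially encoded genes called in ko against wt was 1 on HFD, 2 on the normal diet and 3 in the average. It was 0 and 1 on the 2 diets with only the libraries of the groups compared. With no filter on low counts, where 51, 648 and 644 of 26294 genes were called, it was 3, 9 and 7 of 34 members tested. With DESeq2's Wald test, where 95, 529 and 860 of 14433 genes were called, it was 3, 5 and 6. On HFD it was 2 with DESeq2 size factors, with scaling without the mitochondrially encoded genes, with libraries scaled to equal mitochondrial mRNA and with copies summed. On the normal diet it was 1 with scaling without these genes and 3 with libraries scaled to equal mitochondrial mRNA. In the average it was 2 with that scaling and with copies summed. Without the muscle library and the 2 high-share libraries it was 0 on each diet and 2 in the average. Leaving out 1 library gave 0 to 2 on each diet and 2 to 4 in the average. The causes of these shifts were not tested.

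The main fit assumed no pairing by replicate number. Of 18 same-numbered pairs, 4 had a correlation of deviations over 0.1 (-0.21 to 0.33). Differently numbered pairs were not set beside them, so these values cannot exclude a shared batch. With the replicate number as a block, the members called were 0 on HFD, 1 on the normal diet and 3 in the average.

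Over all genes, calls in ko against wt were 10 on HFD, 30 on the normal diet and 168 in the average. They were 6 and 96 with only the groups compared, 51, 648 and 644 with no filter, 95, 529 and 860 with DESeq2, and 5, 3 and 44 without the muscle and high-share libraries. Scaling to equal mitochondrial mRNA moved the median log2 change of all genes in the average to -0.44 and gave 59, 450 and 514 calls, in the average 34 higher and 480 lower, against 114 and 54. Leaving out 1 library gave 2 to 14, 3 to 84 and 45 to 254. For HFD against the normal diet in wt, 100 genes were called, with 34, 696, 265, 17 and 660 under only the groups compared, no filter, mitochondrial mRNA scaling, the 3 libraries left out and DESeq2, and 9 to 131 without 1 library. In ko the count of 0 became 2 with only the groups compared, 21 with no filter, 37 with mitochondrial mRNA scaling and 37 with DESeq2, and 0 to 6 without 1 library. For the difference of the ko effects, 0 became 13 with no filter, 103 with mitochondrial mRNA scaling and 19 with DESeq2, and 0 to 1 without 1 library.

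Signs turned in members that the main edgeR fit did not call in that comparison. Scaled to equal mitochondrial mRNA, the log2 changes on HFD, on the normal diet and in the average were -0.41, -0.61 and -0.51 for mt-Rnr2, -0.15, -0.21 and -0.18 for mt-Nd4 and -0.018, -0.14 and -0.077 for mt-Cytb. There mt-Atp6 had -0.18 on the normal diet, mt-Co3 -0.18 on the normal diet and -0.030 in the average, and mt-Tp -0.039 on HFD and -0.011 in the average. Without the muscle and high-share libraries mt-Rnr2 had -0.34, -0.49 and -0.42, mt-Nd4 -0.15, -0.0027 and -0.078, and mt-Atp6 -0.0042 on the normal diet. Without 1 library mt-Rnr2 ran from -0.35 to 0.18 on HFD, -0.43 to 0.77 on the normal diet and -0.21 to 0.39 in the average, mt-Nd4 from -0.15 to 0.44 on HFD and mt-Atp6 from -0.067 to 1.11 on the normal diet. With copies summed, mt-Nd3 had -0.12 on HFD. Total shares moved by less than 1 SD without the rRNAs or with the 13 mRNAs alone. Genes with few reads, mt-Tr in wt above all, are limited by depth.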

Other observations

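The methionine tRNA gene mt-Tm, chosen after its values were seen, had 0, 4 and 1 counts in ko_HFD and 1, 0 and 6 counts in wt_HFD, which overlap. It had 50, 17 and 19 counts in ko_normal and 2, 1 and 0 counts in wt_normal, which do not. Its log2 change on the normal diet was 4.72 (SE 1.12, edgeR adjusted p = 0.0979), and it was called there by DESeq2 (adjusted p = 0.00754). For HFD against the normal diet in ko its log2 change was -3.92 (SE 1.05, adjusted p = 0.585), and the difference of the ko effects was not called (adjusted p = 0.913).

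The adjacent minus-strand tRNA genes mt-Tn and mt-Tc had 37 to 1044 and 89 to 1461 counts per library, with both extremes of each in the same libraries, wt_HFD replicate 1 and ko_normal replicate 1. No call was made for either in the main edgeR fit.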
